A study of Mus musculus with 22 samples.

Results

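The genes described here encode the urea cycle and the enzymes of amino acid breakdown in mouse liver. The set held 39 genes, chosen by symbol for their known roles, with earlier results of these data known. Shares of the set are thus not those of an independently chosen list. All 39 had a row among the 53392 genes of the deposited table, and all 39 were among the 15928 genes with enough counts to be tested. Liver RNA came from 22 female C57BL/6 mice, 1 library per mouse, in 4 groups. Conventional mice, which carry an ordinary microbiota, were either not pregnant (CN, 6 mice) or pregnant (CP, 5 mice). Germ-free mice, reared without microbes, were likewise not pregnant (GN, 6 mice) or pregnant (GP, 5 mice). The labels name no transgene and no drug in any group, and all 4 groups had the same autoclaved breeder chow. Pregnant mice were sampled at gestation day 15. Conventional females were mated at 8 weeks of age for 1 night, whereas germ-free females were mated at 11 to 15 weeks over 72 h, with day 2 after the male was introduced taken as gestation day 0. The gestation day of the germ-free mice was therefore assumed. The age labels give no unit, and conventional mice had 70 to 77 and germ-free mice 91 to 121, so that age and microbiota status cannot be told apart. Individual mice are named by group and replicate number, such as CP2 for conventional pregnant mouse 2.

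The liver breaks down amino acids in excess of what protein synthesis needs, and the nitrogen released is fixed by the urea cycle, which runs partly in mitochondria and partly in the cytosol of hepatocytes. Transaminases move amino groups onto glutamate or aspartate, dedicated pathways dismantle the carbon skeletons, and the methionine cycle supplies methyl groups. Many of these genes are known to respond to glucagon, glucocorticoids, insulin and dietary protein, and several are expressed mainly in hepatocytes around the portal vein. The comparisons below ask how their mRNA levels differed between pregnant and non-pregnant mice, and between mice with and without a microbiota.

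Levels are in CPM, the usual unit of counts scaled to a common library total, here the effective total after scaling by trimmed mean of M-values (TMM). Changes are log2 fold changes ± standard error from 1 edgeR quasi-likelihood fit over all 22 libraries, with p-values adjusted by the Benjamini-Hochberg method over the 15928 genes. A gene is said to rise or fall where its adjusted p was under 0.05. Every adjusted p comes from that fit unless another tool is named. Library totals ran from 18064491 to 30036912 estimated counts, and mitochondrially encoded genes took between 5.90% and 32.0% of them. Summed hepatocyte marker mRNA (Alb, Apoa1, Ttr, Trf, Apob, Serpina1a, Fgb and Ahsg) was at least 68059 CPM in every library, whereas the 1 kidney tubule and the 1 exocrine pancreas marker of 5 each with enough counts to be tested reached at most 2.63 CPM. In bulk tissue, fewer cells of a type and less RNA per cell cannot be told apart.

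Mouse CP2 stood apart from all other mice. Its acute phase mRNA (Saa1, Saa2, Saa3, Lcn2 and Orm2) summed to 6427 CPM, against 51.4 to 388 CPM in the other 21 libraries. Its macrophage markers summed to 1411 CPM, against at most 672 CPM elsewhere, and its mitochondrially encoded share was the lowest of all. The 39 amino acid genes together summed to 8869 CPM in CP2 and to 17160.0 to 29955 CPM in the other mice. CP2 was the lowest of the 5 conventional pregnant mice in 36 of the 39 genes, and the lowest of all 22 mice in 34. Calls on the 39 genes, and most counts, that rest on the conventional pregnant group are therefore also given without this mouse. Calls on single genes outside the 39 are given without it only where stated. In the non-pregnant conventional group, mouse CN6 was the highest of 6 in 22 of the 39 genes. How often CP2 and CN6 held these ranks over all tested genes was not computed.

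In conventional mice pregnancy went with lower mRNA levels of Sds, Prodh, Tdo2 and 10 other genes of the set. Of the 39, 13 fell and 1 (Tat) rose, together 35.9%, where 9.02% of all tested genes passed the test. Falls made up 3.52% of all tested genes, and rises 5.49%. Besides those 3, the genes that fell were Ass1, Got1, Gpt, Aass, Gpt2, Gnmt, Hpd, Fah, Ftcd and Bckdhb. The log2 change was negative for 34 of the 39, with a median of -0.39, against a median of 0.04 over all tested genes. For 8 genes (Gpt, Gpt2, Hpd, Tdo2, Ftcd, Sds, Prodh and Bckdhb) every pregnant mouse was below every non-pregnant mouse, a separation seen for 2.39% of all tested genes. Without CP2, 8 genes fell and 1 rose, while 6.47% of all tested genes passed, and Got1, Gnmt, Fah, Ftcd and Bckdhb were no longer called. The median over the 39 was then -0.275. Among the mice with age label 77 alone, 15 genes were called (8.73% of all genes tested there), of which 10 were among the 14. That subset leaves out CN1, CN6 and CP1 as well as CP2, so it does not show the part of CP2. Without CP1 alone 16 genes were called (9.37% of all genes tested there), and Cps1, Asl, Gls2, Kynu and Etnppl passed. Leaving out CN4 or CP4 gave 9 and 8 called genes (6.58% and 7.92% of all genes tested there).

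In germ-free mice genes moved in both directions with pregnancy. Of the 39, 9 fell and 3 rose (Bhmt, Mat1a and Tat), together 30.8%, where 10.8% of all tested genes passed the test, with 7.15% rising and 3.6% falling. The 9 that fell were Etnppl, Sds, Prodh, Gls2, Tdo2, Aass, Kynu, Gpt and Gpt2. The log2 change was negative for 30 of the 39, and the median was -0.16, against -0.02 over all tested genes. For 4 genes (Gpt, Kynu, Aass and Etnppl) every pregnant mouse was below every non-pregnant mouse, as for 2.81% of all tested genes, and for 3 every pregnant mouse was above, as for 5.66%. Between 6 and 7 genes were called when GN5, GN6, GP3, GP4 or GP5 was left out. The share of all tested genes in those fits is not given here, so the drop cannot be read as particular to the set. A plot of the changes by pathway shows both comparisons side by side.

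**Figure D1:**
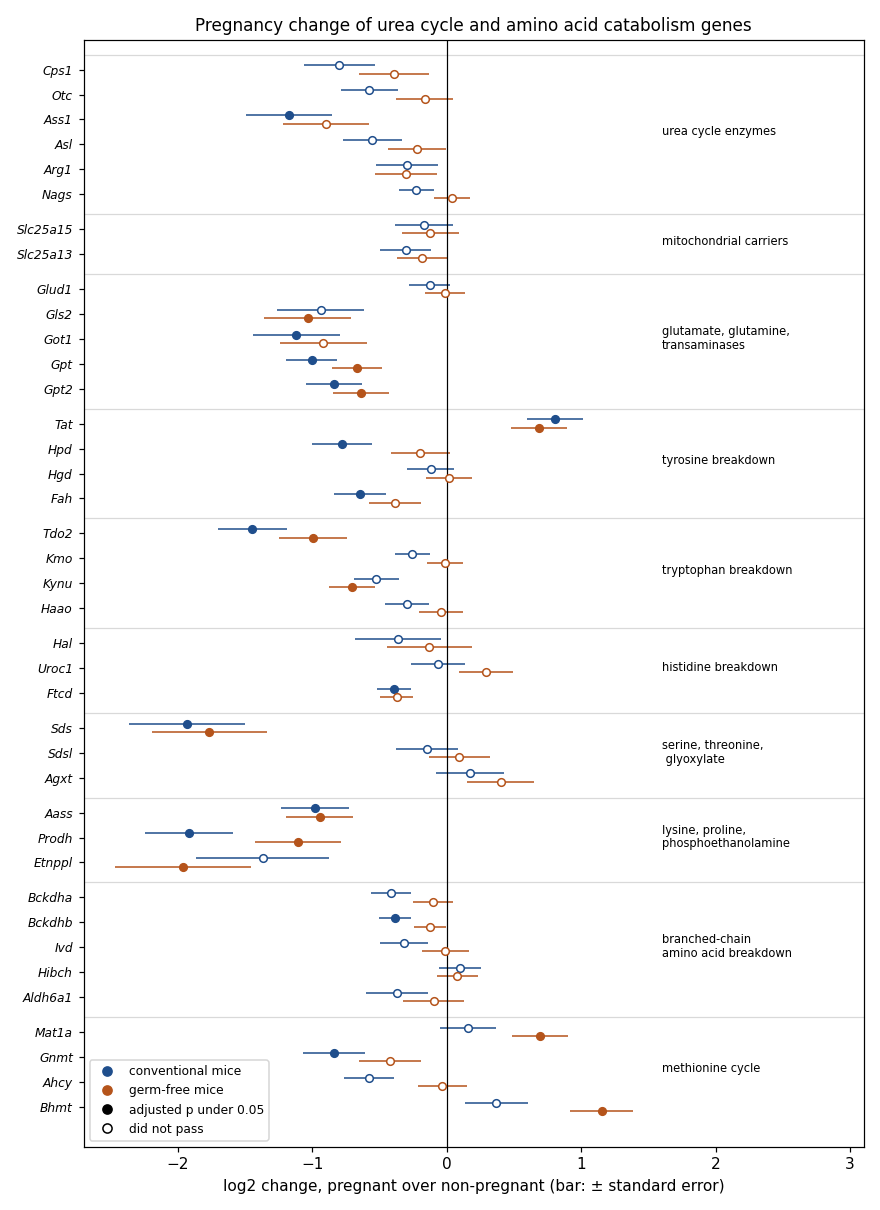
Log2 change of each of the 39 genes with pregnancy, ordered by pathway, in conventional mice (blue) and germ-free mice (orange). Points are estimates over 6 non-pregnant and 5 pregnant mice, bars are ± 1 standard error, and filled points passed an adjusted p of 0.05. Filled points lie mostly to the left of 0, with Tat, Mat1a and Bhmt as filled points to the right.

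With pregnancy 7 genes changed in both settings, which share no mice: Gpt, Gpt2, Tat, Tdo2, Sds, Aass and Prodh. They make up 17.9% of the 39, where 5.45% of all tested genes were called in both. They are 50% of the 14 called in conventional mice and 58.3% of the 12 called in germ-free mice, against 60.4% and 50.7% over all tested genes. Each moved the same way in both, as did all 868 genes called in both. A further 12 were called in 1 setting, and 20 in neither. The averaged pregnancy change over both settings, a contrast added after seeing the data, called 20 of the 39 (51.3%, against 20.2% of all tested genes). Of these, 17 fell (8.39% of all tested genes) and 3 rose (11.8%), and leaving out 1 library at a time gave 17 to 20. Without CP2 the count was 19, where 19.2% of all tested genes passed.

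**Figure D2:**
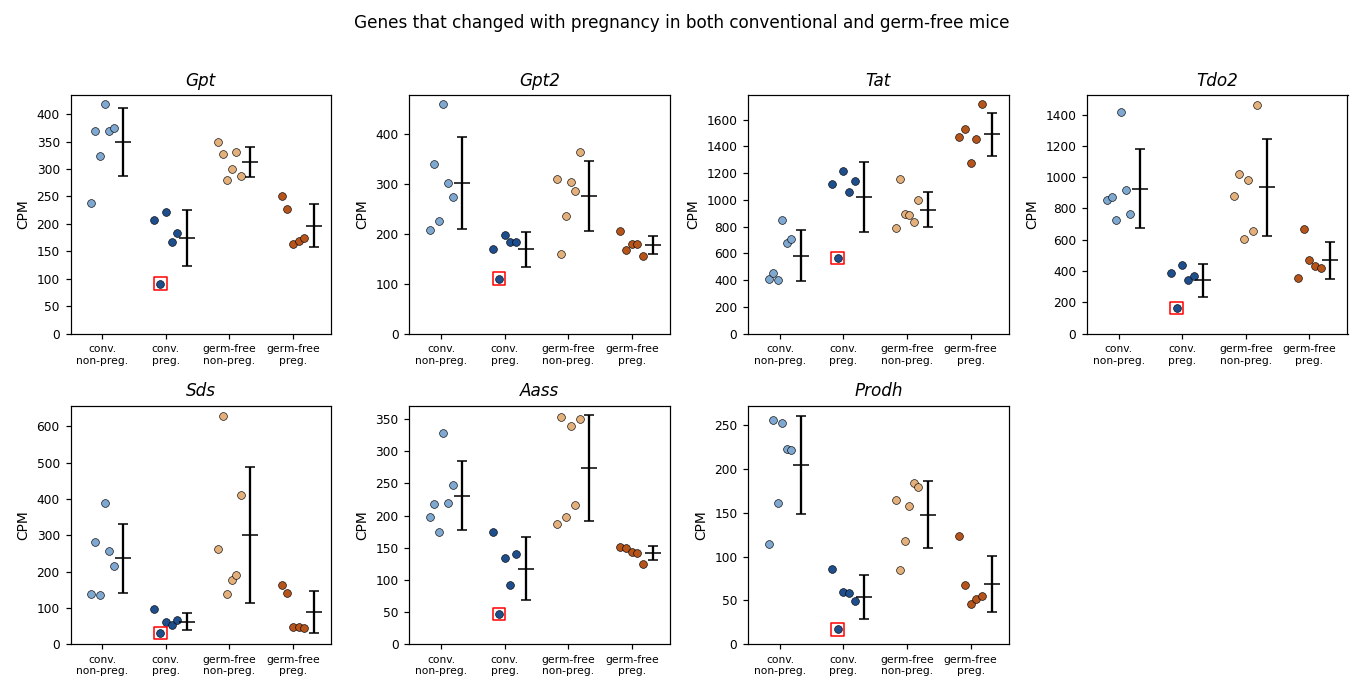
CPM in each mouse for the 7 genes called with pregnancy in both settings. Each point is 1 mouse (6, 5, 6 and 5 per group), the bar beside each group is the mean ± SD, and the red square marks CP2. Levels of 6 genes are lower in the pregnant groups, and Tat is higher.

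Promoter sequences of these 7 genes were examined because each was called with pregnancy in both settings. RefSeq start sites on GRCm38.p6 were matched for 30 of the 39 genes (34 windows), and 3 of the 7 had an exon-free window of 250 bases before the start. These 3 windows, from Aass and Gpt2, which fell, and Tat, which rose, are written 5′ to 3′ on the gene's strand. Capitals mark matches on either strand to the CCAAT box (CCAAT) and the short form of the cAMP response element (TGACG).
Aass, chr6:23132987-23133236, minus strand: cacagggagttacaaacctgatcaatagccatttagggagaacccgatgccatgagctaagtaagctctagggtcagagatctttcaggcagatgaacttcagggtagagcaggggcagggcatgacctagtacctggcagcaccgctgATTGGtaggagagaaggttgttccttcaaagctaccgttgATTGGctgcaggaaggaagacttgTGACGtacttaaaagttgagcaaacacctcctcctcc
Gpt2, chr8:85492326-85492575, plus strand: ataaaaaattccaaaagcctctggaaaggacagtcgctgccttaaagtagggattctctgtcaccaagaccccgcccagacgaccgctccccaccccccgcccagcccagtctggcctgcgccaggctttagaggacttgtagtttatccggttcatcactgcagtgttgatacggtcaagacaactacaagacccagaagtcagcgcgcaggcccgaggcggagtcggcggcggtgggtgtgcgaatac
Tat, chr8:109990186-109990435, plus strand: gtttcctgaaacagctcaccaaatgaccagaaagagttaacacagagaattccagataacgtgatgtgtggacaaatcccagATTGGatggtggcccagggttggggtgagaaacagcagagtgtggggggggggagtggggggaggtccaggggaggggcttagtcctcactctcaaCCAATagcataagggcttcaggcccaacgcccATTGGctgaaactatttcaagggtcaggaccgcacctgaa
Aass holds CCAAT matches that begin 101 and 61 bases before the start and a TGACG match at 37 bases, Tat holds CCAAT matches at 168, 72 and 40 bases, and Gpt2 holds none of the motifs searched. The other motifs were also searched on both strands, and none was in these 3 windows. They were the TATA box, spelled TATAAA, the full cAMP response element, which contains the short form and is spelled TGACGTCA, and the hexamer bound by the glucocorticoid receptor, spelled TGTTCT. A site for STAT factors, spelled TTCNNNGAA, and the core of the site for the hepatocyte factor HNF1, spelled GTTAAT, completed the search. CCAAT was in 44.1% of the windows of these amino acid genes and in 33.8% of all 32851 RefSeq windows of this length. TGACG was in 8.82% and 17.8%, TGTTCT in 8.82% and 16.1%, TATAAA in 11.8% and 12.4%, TTCNNNGAA in 5.88% and 7.02%, GTTAAT in 11.8% and 6.43%, and TGACGTCA in 0% and 1.55%. A match describes the letters only.

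Within the urea cycle, Ass1 was the gene that fell with pregnancy in conventional mice, and none of the 6 enzymes passed the test in germ-free mice. Ass1 encodes argininosuccinate synthase, which joins citrulline to aspartate (chr2:31470207-31520672, plus strand, GENCODE M21 on GRCm38). Its level was 1837 to 4530.5 CPM (median 2539) in non-pregnant and 2080.5, 423, 1282, 843 and 1468 CPM in pregnant conventional mice, and it fell by 1.17 ± 0.32 on the log2 scale (adjusted p = 0.0231). The groups overlapped only through CP1, which lay above the lowest non-pregnant mouse. In germ-free mice Ass1 was 1943 to 4143 CPM (median 2629) without and 1302, 2494, 1204, 1199 and 1361 CPM with pregnancy, a change of -0.89 ± 0.32 (adjusted p = 0.0760). All germ-free pregnant mice except GP2 were below all non-pregnant ones. Of the 31-base words of Ass1, 43.1% also occur in other genes. The pseudogene Gm5424 shares the most, and it had 122 counts in all libraries together against 1033281 for Ass1. Without CP2 the Ass1 change in conventional mice was -0.95 (adjusted p = 0.0480), and without GP2 that in germ-free mice was -1.15 ± 0.33 (adjusted p = 0.0298). In conventional mice the call on Ass1 was lost without CP4 (adjusted p = 0.0614) and with the fit limited to the conventional mice (adjusted p = 0.0690).

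Cps1, the mitochondrial enzyme that makes carbamoyl phosphate and commits ammonia to the cycle, was 1149.6 to 2699 CPM (median 1391) in non-pregnant and 1454, 397, 1042, 693 and 932 CPM in pregnant conventional mice. Its change was -0.80 ± 0.26 (adjusted p = 0.0596) there and -0.39 ± 0.26 (adjusted p = 0.388) in germ-free mice, where levels were 1276 to 1940.0 CPM (median 1742) and 929, 1724, 1181, 1311 and 1407 CPM. Cps1 did not pass the test in either setting, but it did in the averaged contrast, at -0.59 ± 0.19 (adjusted p = 0.0248), and in conventional mice without CP1, at -1.04 ± 0.26 (adjusted p = 0.0129). Otc, which transfers carbamoyl phosphate to ornithine, averaged 466 ± 129 CPM (SD, n = 6), 313 ± 100.2 CPM (n = 5), 467 ± 82.9 CPM (n = 6) and 417 ± 41.0 CPM (n = 5) in CN, CP, GN and GP. Asl, which splits argininosuccinate into arginine and fumarate, averaged 450.3 ± 76.6 CPM, 307 ± 103 CPM, 472 ± 85.3 CPM and 405 ± 119 CPM in the same order. Arg1, the arginase that releases urea, averaged 1187 ± 302 CPM, 968 ± 250.5 CPM, 1423 ± 434 CPM and 1155 ± 307 CPM. None of these 3 passed the test with pregnancy, although Asl did in conventional mice without CP1, at -0.74 ± 0.22 (adjusted p = 0.0333): the changes in conventional mice were -0.58 ± 0.21 (adjusted p = 0.0962), -0.55 ± 0.22 (adjusted p = 0.120) and -0.29 ± 0.23 (adjusted p = 0.511) for Otc, Asl and Arg1. Nags, which makes the N-acetylglutamate that activates carbamoyl phosphate synthase, was the scarcest of the 6 per kilobase of exon, with changes of -0.23 ± 0.13 and 0.04 ± 0.13 in conventional and germ-free mice. The 2 mitochondrial carriers, Slc25a15 (ornithine) and Slc25a13 (aspartate and glutamate), had changes between -0.31 and -0.12 across both settings and did not pass.

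**Figure D3:**
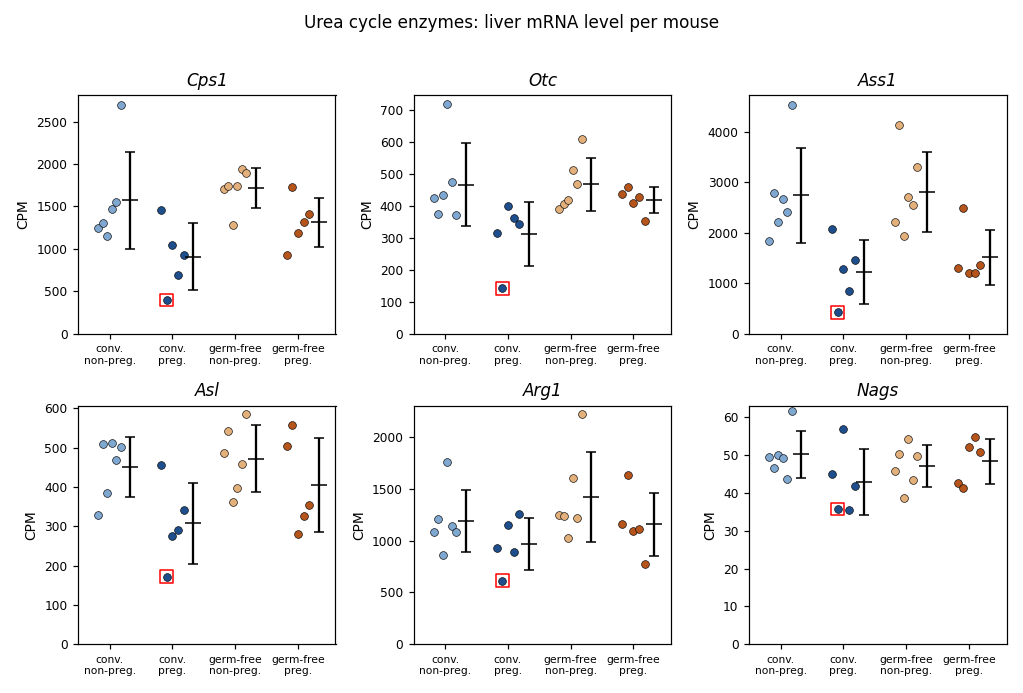
CPM in each mouse for the 6 urea cycle enzymes. Each point is 1 mouse, the bar beside each group is the mean ± SD (n = 6, 5, 6 and 5), and the red square marks CP2. CP2 is the lowest conventional pregnant mouse in 5 of the panels, and Ass1 has the largest difference between pregnant and non-pregnant conventional mice.

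Summed over the 6 urea cycle enzymes, levels were 4966 to 9244 CPM in CN, 1783 to 5280.3 CPM in CP, 5058 to 8662 CPM in GN and 4219 to 6907 CPM in GP. CP2 gave the lowest of these sums, and without it the conventional pregnant range began at 3111 CPM. Levels of different genes were compared per kilobase of all annotated exons of a gene. That length can exceed the transcripts present, so ranks between genes are approximate. On this scale Ass1 was the most abundant of the 39 in non-pregnant conventional liver (1137 CPM per kb), followed by Hpd (1034) and Gnmt (1001). These 3 did not differ beyond their spread among mice, with SDs of 389, 56.0 and 197 CPM per kb. In germ-free pregnant liver Mat1a was first (949 CPM per kb), then Hpd (888), Gnmt (736), Ahcy (656) and Ass1 (626).

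Alanine transaminases fell with pregnancy in both settings. Gpt, the cytosolic enzyme, was 237 to 418 CPM (median 369) in non-pregnant and 207, 90.7, 221, 168 and 183 CPM in pregnant conventional mice and fell by 1.00 ± 0.19 on the log2 scale (adjusted p = 0.00121). In germ-free mice it was 279.7 to 348 CPM (median 314) and 249.99, 228, 164, 168 and 175 CPM and fell by 0.67 ± 0.19 on the log2 scale (adjusted p = 0.0220). Conventional groups did not overlap for Gpt, and those of germ-free mice did not either. Gpt2, its mitochondrial paralog, was 208 to 460.4 CPM (median 287) and 170.1, 109.7, 197, 183 and 183 CPM in conventional mice and fell by 0.84 ± 0.21 on the log2 scale (adjusted p = 0.0119). In germ-free mice Gpt2 was 159.8 to 363 CPM (median 294) and 206, 168, 179, 179 and 155 CPM and fell by 0.64 ± 0.21 on the log2 scale (adjusted p = 0.0496). Both paralogs thus moved in the same direction in both settings. Without CP2 the Gpt change in conventional mice was -0.84 (adjusted p = 0.00156) and that of Gpt2 was -0.72 (adjusted p = 0.0390). The germ-free call on Gpt was lost without GP3, GP4 or GP5 (adjusted p = 0.0594 to 0.0740). That on Gpt2 was kept in 6 of the 22 fits that leave out 1 library, those without CN1, CN3, CN4, CP2, GN2 and GP1, and its adjusted p in the other 16 was 0.0505 to 0.122. It was also lost with no filter on low counts (adjusted p = 0.0555).

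Got1, the cytosolic aspartate transaminase, and Gls2, the liver glutaminase that frees ammonia from glutamine, each fell in 1 setting. Got1 was 106 to 218 CPM (median 164) in non-pregnant and 139, 39.8, 63.4, 48.7 and 73.1 CPM in pregnant conventional mice and fell by 1.12 ± 0.32 on the log2 scale (adjusted p = 0.0306). In germ-free mice it was 179 to 444 CPM (median 288) and 129, 285, 70.4, 125 and 149 CPM, a change of -0.92 ± 0.32 (adjusted p = 0.0702). CP1 and GP2 lay inside the non-pregnant range of their setting, and the other pregnant mice lay below it. Gls2 was 190.1 to 364 CPM (median 235) and 105, 208, 81.0, 102 and 115 CPM in germ-free mice and fell by 1.03 ± 0.32 on the log2 scale (adjusted p = 0.0415). In conventional mice Gls2 was 198 to 384 CPM (median 234) and 265, 40.6, 151, 102 and 110.2 CPM, a change of -0.94 ± 0.32 (adjusted p = 0.0726). Without CP2 the Got1 change in conventional mice was -0.97 (adjusted p = 0.0887), and without GP2 that in germ-free mice was -1.27 ± 0.31 (adjusted p = 0.0112). Without CP1 the Gls2 change in conventional mice was -1.35 ± 0.30 (adjusted p = 0.00561). The Got1 call was lost without CN2, CN4, CN6, CP2, CP3, CP4 or CP5 (adjusted p = 0.0529 to 0.0887), and the Gls2 call without GN1, GN2, GN4, GN5, GN6, GP1, GP3, GP4 or GP5 (adjusted p = 0.0506 to 0.121), and among mice with age label 105 alone (adjusted p = 0.0798). Glud1, glutamate dehydrogenase, had changes of -0.12 ± 0.15 and -0.01 ± 0.15 and did not pass in either setting.

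Tat, the tyrosine aminotransferase that opens tyrosine breakdown, rose with pregnancy in both settings while later enzymes of the pathway fell or did not pass. It lies at chr8:109990437-109999803, plus strand, and its upstream window is printed above. In conventional mice Tat was 401 to 853 CPM (median 564) without and 1118, 565, 1213, 1059 and 1144 CPM with pregnancy, and it rose by 0.81 ± 0.21 on the log2 scale (adjusted p = 0.0154). CP2, at 565 CPM, was within the non-pregnant range, and the other 4 pregnant mice were above all non-pregnant ones. In germ-free mice Tat was 793 to 1152 CPM (median 892) and 1473, 1526, 1275, 1456 and 1718 CPM and rose by 0.68 ± 0.21 on the log2 scale (adjusted p = 0.0346), with no overlap between the groups. The germ-free call was lost without GN1, GN3, GN4, GN5, GN6, GP2, GP4 or GP5 (adjusted p = 0.0508 to 0.105), and with no filter on low counts (adjusted p = 0.0995). Without CP2 the Tat change in conventional mice was 0.96 (adjusted p = 0.00197). In conventional mice the call was lost with the fit limited to the conventional mice (adjusted p = 0.0883) and among mice with age label 77 (adjusted p = 0.0569).

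Hpd, 4-hydroxyphenylpyruvate dioxygenase, which takes the product of Tat, fell in conventional mice. Its levels were 2027 to 2362 CPM (median 2213) without and 1561, 498, 1588, 1334 and 1427 CPM with pregnancy, and it fell by 0.78 ± 0.22 on the log2 scale (adjusted p = 0.0289). Every conventional pregnant mouse was below every conventional non-pregnant one for Hpd. In germ-free mice Hpd was 1823 to 2818 CPM (median 2091) and 2301, 2357, 1525, 1453 and 1808 CPM, a change of -0.20 ± 0.22 (adjusted p = 0.647). Fah, fumarylacetoacetase, the last enzyme of the pathway, was 459.8 to 719 CPM (median 531) and 334, 252, 522, 371 and 344 CPM in conventional mice and fell by 0.65 ± 0.19 on the log2 scale (adjusted p = 0.0380). In germ-free mice its change was -0.38 ± 0.19 (adjusted p = 0.228). Hgd, homogentisate dioxygenase, had changes of -0.12 ± 0.17 and 0.02 ± 0.17 and did not pass. Without CP2 the Hpd change in conventional mice was -0.57 (adjusted p = 0.0319) and the Fah change -0.54 (adjusted p = 0.111). The Hpd call was lost without CN4 (adjusted p = 0.0517) and with only conventional mice in the fit (adjusted p = 0.0882). The Fah call was lost without CN3, CN4, CN5, CP1, CP2, CP4 or CP5 (adjusted p = 0.0587 to 0.111), in the fit of conventional mice alone (adjusted p = 0.0733), with no filter on low counts (adjusted p = 0.0531) and among mice with age label 77 (adjusted p = 0.0914).

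Tdo2, the hepatic tryptophan dioxygenase that begins the kynurenine pathway, fell with pregnancy in both settings (chr3:81957090-81976202, minus strand). It was 727 to 1418 CPM (median 864) in non-pregnant and 385, 164, 442, 345 and 367 CPM in pregnant conventional mice and fell by 1.44 ± 0.26 on the log2 scale (adjusted p = 0.000651). In germ-free mice it was 605 to 1461 CPM (median 931) and 358, 668, 468, 433 and 422 CPM and fell by 0.99 ± 0.25 on the log2 scale (adjusted p = 0.0116). Every conventional pregnant mouse was below every conventional non-pregnant one for Tdo2. For Tdo2 the germ-free groups overlapped, with GP2 inside the non-pregnant range. Both calls held in each of the 22 fits that leave out 1 library, and without CP2 the conventional change was -1.27 (adjusted p = 0.00133). Kynu, kynureninase, which cleaves kynurenine and its hydroxylated form, was 68.3 to 107 CPM (median 84.3) and 43.1, 64.1, 48.6, 64.1 and 53.9 CPM in germ-free mice and fell by 0.70 ± 0.17 on the log2 scale (adjusted p = 0.00814). In conventional mice Kynu was 62.7 to 100.2 CPM (median 70.6) and 73.7, 37.0, 52.8, 45.8 and 46.1 CPM, a change of -0.52 ± 0.17 (adjusted p = 0.0556), and without CP1 it was -0.69 ± 0.16 (adjusted p = 0.00763). Kmo and Haao, the oxygenases on either side of Kynu, had changes of -0.26 ± 0.13 and -0.29 ± 0.16 in conventional mice and of -0.01 ± 0.13 and -0.04 ± 0.16 in germ-free mice, none of which passed.

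In histidine breakdown 1 of 3 genes fell in conventional mice and none passed in germ-free mice. Ftcd, which passes the formimino group of histidine to folate, was 241 to 316 CPM (median 278) without and 219, 184, 234, 224 and 193 CPM with pregnancy in conventional mice and fell by 0.39 ± 0.12 on the log2 scale (adjusted p = 0.0484). In germ-free mice its change was -0.37 ± 0.12 (adjusted p = 0.0570). Every conventional pregnant mouse was below every conventional non-pregnant one for Ftcd. Ftcd was not called in conventional mice in 15 of the 22 fits that leave out 1 library (adjusted p = 0.0537 to 0.124), that without CP2 among them (adjusted p = 0.124). Nor was it called with only conventional mice in the fit (adjusted p = 0.0873), with age label 77 alone (adjusted p = 0.0871), with no filter on low counts (adjusted p = 0.128) or with a replicate block (adjusted p = 0.0938). In germ-free mice Ftcd passed without GN4 or GP1 (adjusted p = 0.0341 and 0.0227). Hal, histidase, and Uroc1, urocanase, had changes of -0.36 ± 0.32 and -0.07 ± 0.20 in conventional mice and of -0.13 ± 0.32 and 0.29 ± 0.20 in germ-free mice and did not pass.

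In conventional mice the estimate for Sds lay furthest below 0, next to that of Prodh, from which it differed by less than either standard error. Sds is serine dehydratase, which turns serine and threonine into keto acids that can enter gluconeogenesis (chr5:120476526-120483932, plus strand). Its level was 136 to 388 CPM (median 237) without and 95.9, 31.1, 61.8, 54.3 and 67.3 CPM with pregnancy, and it fell by 1.93 ± 0.43 on the log2 scale (adjusted p = 0.00553). In germ-free mice Sds was 138 to 628 CPM (median 225) and 162, 140.2, 48.1, 48.2 and 44.4 CPM and fell by 1.77 ± 0.43 on the log2 scale (adjusted p = 0.00816). Every conventional pregnant mouse was below every conventional non-pregnant one for Sds. For Sds the germ-free groups overlapped, with GP1 and GP2 inside the non-pregnant range. Both calls held in each of the 22 fits that leave out 1 library, and the conventional change was -1.76 (adjusted p = 0.0178) without CP2. Part of the Sds transcript overlaps Plbd2 on the other strand (21.3% of its exon bases). In all, 24.6% of the 31-base words of Sds occur in other genes, and Plbd2 shares the most. The use of strand in counting is not given in the sources used here. Sdsl, a serine dehydratase paralog that neighbours Sds, averaged 13.2 ± 2.86 CPM (SD, n = 6), 11.9 ± 1.89 CPM (n = 5), 13.3 ± 6.01 CPM (n = 6) and 14.3 ± 3.96 CPM (n = 5) in CN, CP, GN and GP. Its changes of -0.15 ± 0.23 and 0.09 ± 0.23 did not pass. Agxt, which detoxifies glyoxylate by transamination with alanine, had positive changes of 0.17 ± 0.25 (adjusted p = 0.764) and 0.40 ± 0.25 (adjusted p = 0.353) that did not pass either, although without GN2 the germ-free change was 0.69 ± 0.21 (adjusted p = 0.0380).

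Aass, the bifunctional enzyme that starts lysine breakdown in mitochondria, fell by a like amount in both settings. It was 174 to 328 CPM (median 219) in non-pregnant and 175, 46.9, 134, 91.3 and 139.6 CPM in pregnant conventional mice and fell by 0.98 ± 0.25 on the log2 scale (adjusted p = 0.0159). In germ-free mice Aass was 187 to 354 CPM (median 278) and 151, 150.1, 144, 141 and 124 CPM and fell by 0.95 ± 0.25 on the log2 scale (adjusted p = 0.0159). For Aass the conventional groups overlapped, with CP1 inside the non-pregnant range. Every germ-free pregnant mouse was below every germ-free non-pregnant one for Aass. Without CP2 the Aass change in conventional mice was -0.78 (adjusted p = 0.0289). Limiting the fit to conventional mice left Aass just short of the threshold there (adjusted p = 0.0517).

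Prodh, proline dehydrogenase, the first step of proline oxidation (chr16:18060357-18090203, minus strand), fell in both settings. In conventional mice it was 115 to 256 CPM (median 222) without and 86.1, 16.9, 59.4, 59.0 and 49.6 CPM with pregnancy, and it fell by 1.92 ± 0.33 on the log2 scale (adjusted p = 0.000455). In germ-free mice Prodh was 85.2 to 184 CPM (median 161) and 124, 68.0, 46.0, 51.3 and 55.6 CPM and fell by 1.10 ± 0.32 on the log2 scale (adjusted p = 0.0265). Every conventional pregnant mouse was below every conventional non-pregnant one for Prodh. For Prodh the germ-free groups overlapped, with GP1 inside the non-pregnant range. Without CP2 the Prodh change in conventional mice was -1.69 (adjusted p = 0.000495). The germ-free call was lost without GN5, GN6, GP2, GP3, GP4 or GP5 (adjusted p = 0.0531 to 0.0868). Etnppl, a phospho-lyase that breaks down phosphoethanolamine, was 69.3 to 226 CPM (median 79.7) without and 22.6, 48.3, 14.1, 25.6 and 21.3 CPM with pregnancy in germ-free mice. It fell by 1.96 ± 0.50 on the log2 scale (adjusted p = 0.0123), and the call held in each of the 22 fits that leave out 1 library. In conventional mice Etnppl was 52.6 to 110.2 CPM (median 62.5) and 85.2, 13.5, 10.3, 13.0 and 9.41 CPM, a change of -1.37 ± 0.49 (adjusted p = 0.0864). Every germ-free pregnant mouse was below every germ-free non-pregnant one for Etnppl. CP1 held more Etnppl mRNA than 5 of the 6 non-pregnant conventional mice, and without CP1 the change in conventional mice was -2.56 ± 0.36 (adjusted p = 4.76e-05). DESeq2 gave no p for Etnppl in any comparison.

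In branched-chain amino acid breakdown 1 of 5 genes fell in conventional mice and none passed in germ-free mice. Bckdhb, the E1 beta subunit of the branched-chain keto acid dehydrogenase, was 70.4 to 82.2 CPM (median 76.9) without and 61.0, 39.7, 65.6, 62.2 and 62.4 CPM with pregnancy in conventional mice and fell by 0.38 ± 0.12 on the log2 scale (adjusted p = 0.0458). Every conventional pregnant mouse was below every conventional non-pregnant one for Bckdhb. It was not called in 15 of the 22 fits that leave out 1 library (adjusted p = 0.0508 to 0.128), that without CP2 among them (adjusted p = 0.128). The call was also lost with only conventional mice in the fit (adjusted p = 0.104), with age label 77 alone (adjusted p = 0.256) and with no filter on low counts (adjusted p = 0.0800). Its partner Bckdha, the alpha subunit of the same enzyme, had a change of -0.41 ± 0.15 (adjusted p = 0.0893) in conventional mice. Without CP3 the Bckdha change was -0.54 ± 0.15 (adjusted p = 0.0262). Of the 31-base words of Bckdha, 54.6% are shared with other genes, most of all with B3gnt8, which overlaps it on the other strand. Neither subunit passed in germ-free mice, at -0.10 ± 0.15 and -0.12 ± 0.12. Ivd, Hibch and Aldh6a1, which act further along the leucine and valine routes, had changes between -0.37 and 0.10 over both settings, none of which passed.

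In the methionine cycle, the genes for remethylating homocysteine (Bhmt) and for making S-adenosylmethionine (Mat1a) rose in germ-free mice, and Gnmt, which uses up methyl groups, fell in conventional mice. Bhmt, which remethylates homocysteine with betaine, was 1359 to 1706 CPM (median 1472) in non-pregnant and 2632, 4680.1, 3383, 2772 and 3333 CPM in pregnant germ-free mice and rose by 1.15 ± 0.24 on the log2 scale (adjusted p = 0.00185). The 5 pregnant mice were all above the 6 non-pregnant ones, and the call held in each of the 22 fits that leave out 1 library. In conventional mice Bhmt was 1594 to 3119 CPM (median 2010.1) and 3012, 1072, 3636, 2623 and 3384 CPM, a change of 0.37 ± 0.23 (adjusted p = 0.391), with CP2 the lowest of all. Mat1a, the liver enzyme that makes S-adenosylmethionine, was 1738 to 2241 CPM (median 2049) and 2738, 3729, 3158, 3214 and 3622 CPM in germ-free mice and rose by 0.69 ± 0.21 on the log2 scale (adjusted p = 0.0319), again with no overlap. In conventional mice it was 1543 to 2213 CPM (median 1803) and 1965, 827, 2823, 2152 and 2452 CPM, a change of 0.16 ± 0.21 (adjusted p = 0.734). The germ-free Mat1a call was lost without GN3, GN4, GN5, GN6, GP2, GP3, GP4 or GP5 (adjusted p = 0.0517 to 0.0913) and with no filter on low counts (adjusted p = 0.128).

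Gnmt, which spends S-adenosylmethionine to methylate glycine, was 844 to 1541 CPM (median 1259) without and 874, 329, 788, 547 and 839.9 CPM with pregnancy in conventional mice and fell by 0.84 ± 0.23 on the log2 scale (adjusted p = 0.0244). In germ-free mice Gnmt was 883 to 1909.7 CPM (median 1042) and 894, 1053, 836, 781 and 875 CPM, a change of -0.42 ± 0.23 (adjusted p = 0.275). For Gnmt the conventional groups overlapped, with CP1 inside the non-pregnant range. Without CP2 the Gnmt change in conventional mice was -0.66 (adjusted p = 0.0584). The Gnmt call was lost without CP2 or CP4 (adjusted p = 0.0584 to 0.0629) and with only conventional mice in the fit (adjusted p = 0.0670). Ahcy, which hydrolyses S-adenosylhomocysteine, was 1472 to 2339 CPM (median 1857) and 1239.8, 677, 1481, 1273 and 1482 CPM in conventional mice, a change of -0.58 ± 0.18 (adjusted p = 0.0514), and its change in germ-free mice was -0.03 ± 0.18 (adjusted p = 0.936). In conventional mice Ahcy passed without CN1, CP3 or CP5 (adjusted p = 0.0422 to 0.0445). Ahcy and Bhmt share 71.4% and 30.3% of their 31-base words with other genes. The pseudogenes Gm4737 and Gm5096 share the most, and they had 506 and 279 counts in all libraries together.

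**Figure D4:**
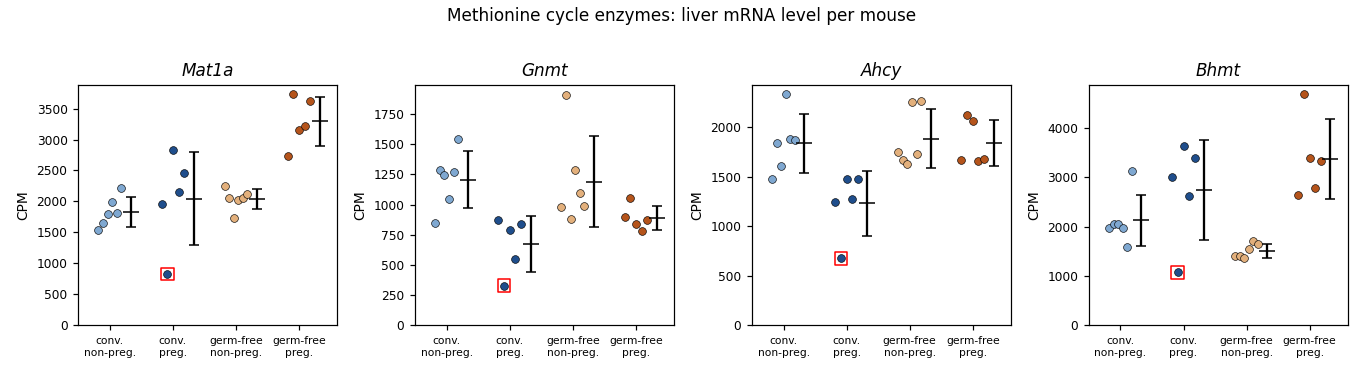
CPM in each mouse for the 4 methionine cycle genes. Each point is 1 mouse, the bar beside each group is the mean ± SD (n = 6, 5, 6 and 5), and the red square marks CP2. Mat1a and Bhmt are higher in all 5 germ-free pregnant mice than in any germ-free non-pregnant mouse, and CP2 is the lowest conventional pregnant mouse in each panel.

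Between germ-free and conventional mice, no gene of the set passed the test in either state. In non-pregnant mice edgeR called 0 of the 39, where 0.157% of all tested genes passed, and DESeq2 called 0 of the 38 to which it gave an adjusted p. At an unadjusted p under 0.05 there were 3 of 39, against 6.01% of all tested genes. The smallest p-values were those of Tat, with a germ-free over conventional change of 0.67 ± 0.20 (adjusted p = 0.268), Got1, with 0.86 ± 0.30 (adjusted p = 0.492), and Bhmt, with -0.49 ± 0.22 (adjusted p = 0.762). In pregnant mice edgeR also called 0 of the 39 and DESeq2 0 of 38, where edgeR called 0.132% of all tested genes. There 6 of 39 had an unadjusted p under 0.05, all higher in germ-free mice, against 10.5% of all tested genes in either direction and 3.93% higher. That count was 4 without CP2, 10 without CP1, 12 without CP3 and 9 without CP5. The share of all tested genes at an unadjusted p under 0.05 is given for the main fit only, so these counts have no background beside them. The smallest p-values there were those of Got1, with 1.06 ± 0.33 (adjusted p = 0.270), Mat1a, with 0.69 ± 0.22 (adjusted p = 0.272), and Ahcy, with 0.58 ± 0.19 (adjusted p = 0.301). Without CP2 they were 0.90 (adjusted p = 0.550), 0.49 (adjusted p = 0.373) and 0.43 (adjusted p = 0.550). For Tat and Ahcy every germ-free pregnant mouse was above every conventional pregnant one, as for 0.496% of all tested genes. The change was positive for 35 of the 39, with a median of 0.285, against -0.03 over all tested genes. Without CP2 it was positive for 30 of the 39, with a median of 0.121. The comparisons between germ-free and conventional mice share their libraries with the pregnancy comparisons.

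The pregnancy change was not shown to differ between germ-free and conventional mice for any gene of the set. The interaction test called 0 of the 39 in edgeR, where 0% of all tested genes passed, and 0 of 38 in DESeq2. At an unadjusted p under 0.05 there were 2 of 39, Bhmt and Ahcy, against 5.67% of all tested genes. That count was 7 without CP3, 0 without CN6 or GP2, and 1 without CN2, CN4, CN5, CP2, CP4, GN1, GN3, GN5 or GP3. Here too the share of all tested genes in these refits is not given. The difference between the changes, germ-free minus conventional, was 0.79 ± 0.33 (adjusted p = 0.863) for Bhmt, 0.54 ± 0.26 (adjusted p = 0.863) for Ahcy and 0.58 ± 0.31 (adjusted p = 0.881) for Hpd. Without CP2 it was 0.58 (adjusted p = 1.000), 0.39 (adjusted p = 1.000) and 0.38 (adjusted p = 1.000). The difference was positive for 33 of the 39, where it was for 47.3% of all tested genes. Without CP2 it was positive for 27, against 49.2% of all genes tested there. Thus the calls that passed in 1 setting alone, such as those on Ass1, Mat1a and Etnppl, do not show a difference between the settings.

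Other genes of the same pathways, outside the 39, were drawn from 8 lists with 103 entries, of which 97 were tested. In conventional mice 7 rose and 12 fell (19.6%, where 9.02% of all tested genes passed), and without CP2 4 rose and 12 fell. In germ-free mice 12 rose and 7 fell (19.6%, where 10.8% passed). Of 16 amino acid transporters, 2 rose and 3 fell in conventional mice, and 3 rose and 2 fell in germ-free mice. Without CP2, 3 rose and 3 fell in conventional mice, where 6.47% of all tested genes passed. Slc38a4, a system A carrier for neutral amino acids, was 645 to 1079.5 CPM (median 713) without and 389.7, 86.6, 186, 154 and 190.4 CPM with pregnancy in conventional mice and fell by 1.96 ± 0.27 on the log2 scale (adjusted p = 4.12e-05). In germ-free mice it fell by 1.91 ± 0.27 on the log2 scale (adjusted p = 4.13e-05). Slc7a2, a carrier of arginine and other cationic amino acids, fell by 1.46 ± 0.29 on the log2 scale (adjusted p = 0.00199) in conventional mice and fell by 1.20 ± 0.29 on the log2 scale (adjusted p = 0.00774) in germ-free mice. Slc7a7, the light chain of a cationic amino acid exporter, was 1.33 to 2.41 CPM (median 2.04) and 4.73, 18.4, 9.68, 8.32 and 7.58 CPM in conventional mice and rose by 2.28 ± 0.27 on the log2 scale (adjusted p = 4.24e-06), and it rose by 1.62 ± 0.27 on the log2 scale (adjusted p = 0.000219) in germ-free mice. Slc43a1, a carrier of large neutral amino acids, rose by 1.42 ± 0.28 on the log2 scale (adjusted p = 0.00196) in conventional mice and rose by 1.55 ± 0.28 on the log2 scale (adjusted p = 0.000622) in germ-free mice.

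Among enzymes, Oat, ornithine aminotransferase of pericentral hepatocytes, fell by 1.55 ± 0.30 on the log2 scale (adjusted p = 0.00145) in conventional mice, from 861 ± 159.9 CPM (SD, n = 6) to 294 ± 135 CPM (n = 5). Its change in germ-free mice was -0.78 ± 0.29 (adjusted p = 0.0903). Pipox, which oxidises pipecolate and sarcosine, fell by 1.11 ± 0.18 on the log2 scale (adjusted p = 0.000249) in conventional mice and fell by 0.96 ± 0.18 on the log2 scale (adjusted p = 0.000806) in germ-free mice. Aspg, an asparaginase, fell by 1.65 ± 0.21 on the log2 scale (adjusted p = 7.05e-06) in germ-free mice and fell by 0.79 ± 0.20 on the log2 scale (adjusted p = 0.0135) in conventional mice. Gamt, which makes creatine from guanidinoacetate and S-adenosylmethionine, rose by 1.08 ± 0.23 on the log2 scale (adjusted p = 0.00309) in germ-free mice, where every pregnant mouse was above every non-pregnant one. Gldc, the glycine decarboxylase of the glycine cleavage system, rose by 1.19 ± 0.34 on the log2 scale (adjusted p = 0.0225) in germ-free mice, a call lost without GN1, GN3, GN6, GP2 or GP5 (adjusted p = 0.0536 to 0.0750). Psph, which completes serine synthesis, rose by 1.05 ± 0.30 on the log2 scale (adjusted p = 0.0279) in conventional mice. The Psph call was lost without CN1, CN2 or CP2 (adjusted p = 0.0538 to 0.232). CP2 had 17.9 CPM of Psph, against 4.02 to 5.56 CPM in the other 4 pregnant conventional mice. Asns and Psat1, singled out after their values were seen and both scarce, were also called in conventional mice and not without CP2 (adjusted p = 0.760 and 0.771).

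Of 18 regulators of amino acid catabolism, 2 fell in conventional mice (11.1%, near the 9.02% of all tested genes) and 1 in germ-free mice (where 10.8% of all tested genes passed), and none rose. Without CP2, 2 fell and none rose in conventional mice, where 6.47% of all tested genes passed. Ppargc1a, a coactivator induced by fasting signals, fell by 1.02 ± 0.25 on the log2 scale (adjusted p = 0.0116) in conventional and fell by 1.14 ± 0.25 on the log2 scale (adjusted p = 0.00346) in germ-free mice. Trib3, a pseudokinase induced by amino acid shortage, fell by 1.00 ± 0.31 on the log2 scale (adjusted p = 0.0447) in conventional mice, a call lost without CN1, CN2, CN3, CN4, CN6, CP1, CP4 or CP5 (adjusted p = 0.0552 to 0.108). The receptors and factors Gcgr, Nr3c1, Cebpa, Cebpb, Hnf4a and Foxo1 did not pass in either setting.

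Levels of marker genes also differed between the groups. Summed pericentral markers were 7591 to 8503 CPM in CN and 1829 to 6289 CPM in CP, with no overlap, and 5363 to 10376 and 5210.1 to 7704 CPM in GN and GP. Summed periportal markers, a list that itself holds Gls2, Hal and Sds of the set, were 3987 to 5589.7 and 2154 to 3954 CPM in conventional mice and 3939.5 to 6737 and 3115 to 5549.9 CPM in germ-free mice. The periportal sums did not overlap in conventional mice, and both zone sums overlapped in germ-free mice. In conventional mice 4 of 11 periportal markers fell and 1 rose, with CP2 or without it. Of 11 pericentral markers 4 fell, whereas without CP2 2 fell and 1 rose. In germ-free mice 3 periportal markers fell and 1 rose, and 1 pericentral marker fell and 1 rose. These counts stand against falls in 3.52% and rises in 5.49% of all tested genes in conventional mice, and 3.6% and 7.15% in germ-free mice. Summed general hepatocyte markers were 75486 to 113556 and 104143 to 284380.3 CPM in conventional mice and 68059 to 104582 and 151512 to 240607 CPM in germ-free mice, where the groups did not overlap. Bile duct markers summed to 32.3 to 90.1 and 24.8 to 27.5 CPM in conventional mice, with no overlap, and to 43.2 to 70.9 and 22.1 to 132 CPM in germ-free mice. Erythroid markers summed to 448 to 862 and 369 to 2251 CPM in conventional mice and to 237 to 1768 and 1759 to 3573 CPM in germ-free mice. The part of these markers in the changes of the amino acid genes was not tested.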

How the data were processed

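The authors deposited estimated counts per gene, unscaled, for 22 libraries; per the submitters' processing notes they used Salmon 0.11.3, edgeR 3.24.3 and GRCm38.p6. Per the labels' protocols, total RNA was extracted with a Qiagen RNeasy kit and libraries were made with a NEBNext Ultra kit. Annotation release, summing to genes and strand setting are not given in the sources used here. Identifiers were matched to GENCODE M21 symbols (99.93%). The deposited estimated counts were rounded, filtered (minimum count 10, total 15, edgeR default) and scaled by TMM, and 1 quasi-likelihood model with 1 term per group was fitted to all 22 libraries in edgeR 4.0.16 under R 4.3.3. Comparisons were pregnancy in each setting, germ-free status in each state and their interaction, tested at an adjusted p of 0.05, with the standard error taken from the F statistic. The fit was tested on simulated data.

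Members and lists were chosen with earlier results of these data known. Members given in full were those called, at most 12 per comparison by size of change and with at least 5 CPM, or the 3 with the smallest p; Ftcd and Bckdhb were added after their values were seen. Of other listed genes, at most 4 per direction were named; 1 that the rule names is not reported here. Each library is labelled as its own mouse, and the lowest mean chi-square per gene between any of 231 library pairs was 31.9, so none was a repeat of another. Alternatives were RLE scaling, no mitochondrially encoded counts, no filter, DESeq2 1.42.0, a replicate block, fewer groups or ages, and leaving out each library; for members outside the naming rule and for other listed genes these were added after seeing the data. Library totals of 18064491 to 30036912 estimated counts set the precision. Adss1 had no row and was left out. Gcat had several rows, and the first was used. Promoters came from RefSeq on GRCm38.p6; motif matches were exact.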

Additional observations from a re-analysis of the deposited data

Results flagged for a closer look

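In each group of 5 or 6 mice, a mouse was set apart for a gene where its gap to the nearest other mouse took up more of the group's range than Dixon's 95% critical value allows. Of 156 tests over 39 genes and 4 groups, 26 were past that value. The limit is set so that about 1 in 20 pass it for normally distributed values. These tests read all genes in the same mice and are not independent, so the 26 are not separate events. CN6 was the highest of its group, beyond that limit, for Cps1 (2699 CPM, others 1149.6 to 1546), Ass1 (4530.5 CPM, others 1837 to 2800.0), Nags (61.7 CPM, others 43.8 to 49.9), Slc25a15 (309 CPM, others 168 to 198), Hgd (505 CPM, others 339 to 397), Kynu (100.2 CPM, others 62.7 to 72.1), Hal (568 CPM, others 231 to 308), Uroc1 (591 CPM, others 294 to 381), Etnppl (110.2 CPM, others 52.6 to 67.0) and Bhmt (3119 CPM, others 1594 to 2060.5). CN4 was the highest of its group, beyond that limit, for Otc (718 CPM, others 373 to 475) and Tdo2 (1418 CPM, others 727 to 921). CP1 was the highest of its group, beyond that limit, for Etnppl (85.2 CPM, others 9.41 to 13.5). CP2 was the lowest of its group, beyond that limit, for Tat (565 CPM, others 1059 to 1213), Hpd (498 CPM, others 1334 to 1588) and Bckdhb (39.7 CPM, others 61.0 to 65.6). GN2 was the highest of its group, beyond that limit, for Hgd (616 CPM, others 412 to 466), Sdsl (24.9 CPM, others 9.42 to 14.7), Agxt (808 CPM, others 313 to 380.1) and Etnppl (226 CPM, others 69.3 to 90.4). GN3 was the lowest of its group, beyond that limit, for Cps1 (1276 CPM, others 1710.5 to 1940.0). GP1 was the highest of its group, beyond that limit, for Prodh (124 CPM, others 46.0 to 68.0). GP2 was the highest of its group, beyond that limit, for Ass1 (2494 CPM, others 1199 to 1361), Gls2 (208 CPM, others 81.0 to 115) and Hgd (557 CPM, others 432 to 466). GP3 was the lowest of its group, beyond that limit, for Ivd (123 CPM, others 161 to 167). Of the 26 values, 10 came from CN6. The origin of these values was not tested.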

How the results depend on the processing

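No direction reversed for the genes chosen by the naming rule, in 1267 refitted values under the alternatives tried. Calls were lost in 32 of 348 values for pregnancy in conventional mice and 58 of 347 in germ-free mice. The averaged contrast, added after seeing the data, lost 0 of 323. The remaining values belong to genes not called in the main fit, which had no call to lose. Shares of all genes tested in the same fit stand in brackets where given. In conventional mice the 14 called genes became 9 with a replicate block (7.55%) and 6 with only the conventional mice in the fit (6.05%). Leaving out 1 library gave 8 to 16 (6.47% to 11.3%). The count was 20 with DESeq2 (11.4%) and 15 among mice with age label 77 (8.73%), 10 of them among the 14. It was 17 with RLE scaling (9.31%) or without mitochondrially encoded counts (9.29%), and 11 with no filter on low counts (3.54%). In germ-free mice the 12 called genes became 8 with a replicate block (10.2%) and 14 with DESeq2 (13%). Leaving out 1 library there gave 6 to 14, with 14 reached without CP2 (12.4%). Shares for the lowest of these counts are not given here. The other alternatives gave 9 to 13 (3.93% to 13.8%). Comparisons by germ-free status and the interaction gave 0 called genes in every alternative. The averaged pregnancy change gave 17 to 23, for which the range of shares is not given here. Replicate numbers did not appear to pair the mice: the correlation of same-numbered mice in their deviations ran from -0.255 to 0.307, and not every pair exceeded 0.1. Low correlations cannot exclude a pairing that leaves little trace in expression. The replicate block ended the conventional calls on Ass1, Hpd, Gnmt, Fah, Aass and Ftcd and the germ-free calls on Gls2, Aass, Gpt and Gpt2. Alternative scalings moved the median change of all genes by less than 0.05. With 5 or 6 mice a group, many calls close to the threshold depended on single mice. All 39 genes passed the filter on low counts at this depth.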
